A study of Mus musculus with 3 samples.

Results

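The 9 genes followed here were the fatty acid and lipid sensing receptors Ppara, Ppard and Pparg, the coactivators Ppargc1a and Ppargc1b, the estrogen-related receptors Esrra and Esrrg, the bile acid receptor Nr1h4 (FXR) and the oxysterol receptor Nr1h3 (LXR alpha). They were chosen by name, as the non-control probes that the array design assigns to these genes, which gave 14 of 41174 probes and 9 of 19862 named genes. The samples were cells that the labels call mPTECs, an abbreviation they do not spell out, from the kidneys of male mice aged 1 month. Total RNA was taken from freshly isolated cells (day 0) and from cells kept on culture dishes for 1 or 3 days in DMEM/F12 medium with insulin, transferrin, selenium, hydrocortisone and 1% fetal bovine serum. The labels give no strain, and they do not say how many mice each sample came from. Each day was measured on 1 Agilent one-colour array, so no difference between days had a replicate check and no test was made.

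In the kidney, Ppara is known for driving fatty acid oxidation in the proximal tubule. The PPAR, FXR and LXR receptors bind DNA as pairs with retinoid X receptors and switch on target genes when a lipid ligand is bound. Estrogen-related receptors need no known natural ligand and work with the coactivators Ppargc1a and Ppargc1b on genes of mitochondrial energy production.

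Between fresh cells and day 3, Ppara, Nr1h4, Ppargc1a and the main probe of Esrrg were lower by 18.8-fold, 15.0-fold, 13.2-fold and 7.93-fold. Esrra, Nr1h3 and Ppargc1b were lower by 3.42-fold, 3.28-fold and 2.51-fold. Ppard was 2.44-fold higher on day 3, and Pparg was 1.53-fold higher. The 7 genes that were lower on day 3 were already at least 2-fold lower on day 1.

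Levels are given as processed fluorescence divided by the 75th percentile of the same array, so a value of 1 equals that percentile. The level of one probe was not set against that of another. The 75th percentile was 1184, 1509 and 1515 intensity units on days 0, 1 and 3. All 32 spots of the 14 probes were well above background on the 3 arrays. Over 699 probe and array combinations with repeated spots, log2 signals of the spots had an SD of 0.14 at the median, which gives a ratio between 2 arrays an error of 0.20 on the log2 scale, or 1.15-fold. That error covers only the spread between spots within an array. It holds no difference between arrays in labelling, hybridisation, scanning or scaling, and not the spread between mice or cultures. A difference was counted from 2-fold.

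The labelled cell type was checked against marker genes. All 12 proximal tubule markers, such as the phosphate transporter Slc34a1 and the endocytic receptor Lrp2, were well above background on every array. Their summed level was 934, 152 and 18.7 on days 0, 1 and 3, and all 12 were at least 2-fold lower on day 3. Markers of other cells were detected in fresh cells as well: the summed level was 433, 100.0 and 21.7 for the 6 thick ascending limb markers and 34.8, 21.7 and 8.04 for the 8 endothelial markers, of which 4 and 8 were at least 2-fold lower on day 3. All 5 distal convoluted tubule markers (49.2, 2.57 and 1.21), 5 of 7 principal cell markers, all 6 intercalated cell markers and 5 of 6 podocyte markers were at least 2-fold lower on day 3 too. Over all genes, 21.7% were that much lower on day 3. The 8 macrophage markers summed to 14.6, 10.9 and 17.4, and the 8 fibroblast markers to 7.38, 7.80 and 13.3. These sums rest on few genes, and the list medians on day 3 against day 0 were -0.11 and 0.02. Among the macrophage markers, Cd68 was 3.61 and 2.34 higher on the log2 scale on days 1 and 3, and Cd14 was 1.28 higher on day 3. Ptprc was at -1.49 on day 1, or -0.17 with probes averaged, and at -1.59 on day 3. No other macrophage marker was at least 2-fold apart from day 0. Col1a1 and Col1a2 were 2.83 and 2.01 higher on day 3, where Dcn, Pdgfrb and Lum were at -0.96, -0.88 and -0.80. With probes averaged Col1a1 was 1.20 higher on day 3. On day 1 Col1a1 and Col1a2 were at -0.71 and -1.85, or -0.28 and -0.68 with probes averaged. The 6 adipocyte markers, among them Adipoq, stayed between 0.367 and 0.488 in sum. No defining marker of these lists was at 0, and of all of them only the distal tubule gene Pvalb was not well above background on an array, that of day 3. In such bulk samples, fewer cells of a type and less RNA per cell cannot be told apart, and the part of these markers in the differences below was not tested.

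**Figure D1:**
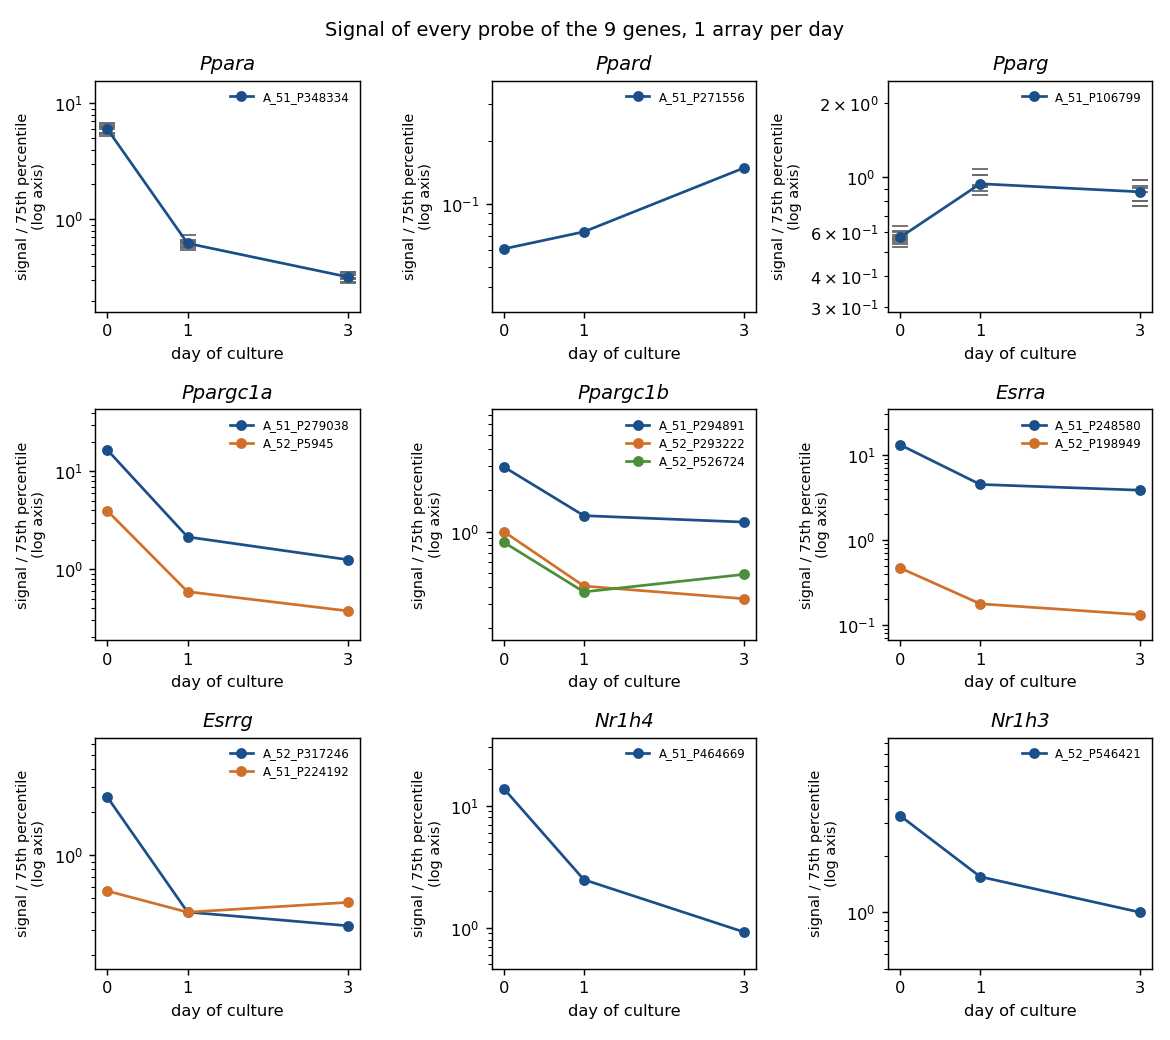
Signal of every probe of the 9 genes over the array's 75th percentile (log axis, own range per panel) against the day of culture, 1 array per day. Points joined by lines are probes, grey dashes are single spots of probes with 10 spots. Ppara goes from 5.99 to 0.319 and Nr1h4 from 13.8 to 0.921, while Ppard goes from 0.0608 to 0.148.

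Ppara, the receptor that induces fatty acid oxidation in mitochondria and peroxisomes, was read by a probe at chr15:85631955-85632014 (mm9, plus strand) that was spotted 10 times on each array. Its level was 5.99 on day 0, 0.622 on day 1 and 0.319 on day 3. The spots ran from 5.20 to 6.74 (median 6.15) on day 0, from 0.541 to 0.728 (median 0.631) on day 1, and from 0.286 to 0.355 (median 0.314) on day 3. The 3 days did not overlap between spots, and the fresh cells were highest. The log2 ratio was -3.27 on day 1 and -4.23 on day 3 against day 0, which is 9.63-fold and 18.8-fold lower. From day 1 to day 3 it was a further -0.96, just under 2-fold, with single spots between -1.21 and -0.68. Of the log2 difference reached on day 3, 77.3% was present on day 1.

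Ppard, the broadly expressed relative of Ppara that also acts on fatty acid use, moved the other way. The probe at chr17:28436596-28436655 (mm9, plus strand) gave 0.0608, 0.0734 and 0.148 on days 0, 1 and 3. Day 3 was highest, at a log2 ratio of 1.29 against day 0 and 1.01 against day 1, or 2.44-fold and 2.02-fold. The difference between days 0 and 1 was small, 0.27 on the log2 scale against an error of 0.20, and its sign turned under 2 other settings, to -0.31 when arrays were scaled to reference genes and to -0.06 with another background correction. Under the same settings the day 3 ratio was 0.51 and 0.97. The scanner software gave the Ppard spot an error of 11.6% on day 0.

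Pparg, the receptor of fat storage, was read at chr6:115440213-115440272 (mm9, plus strand) by a probe with 10 spots. It gave 0.573, 0.943 and 0.874 on days 0, 1 and 3. The spots ran from 0.521 to 0.635 (median 0.569) in fresh cells, from 0.849 to 1.08 (median 0.920) on day 1 and from 0.767 to 0.980 (median 0.893) on day 3. The spots of both culture days lay above the fresh cells with no overlap, and days 1 and 3 overlapped. The ratios against day 0 were 0.72 and 0.61 on the log2 scale, 1.65-fold and 1.53-fold, both short of 2-fold. Scaled to reference genes, the day 3 ratio was -0.16, and scaled to the spiked-in RNA it was 1.02, so its direction rests on the scaling.

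Ppargc1a (PGC-1 alpha), the inducible coactivator of mitochondrial biogenesis, had a pair of probes in one uninterrupted stretch of its transcript, 2031 bases apart. The upstream one, at chr5:51848928-51848987 (mm9, minus strand), gave 16.5, 2.14 and 1.25 on days 0, 1 and 3. The downstream one, at chr5:51846897-51846956, gave 3.94, 0.588 and 0.374. Both probes were highest in fresh cells and lowest on day 3. Their log2 ratios were close: -2.95 and -2.75 on day 1 against day 0, and -3.73 and -3.40 on day 3 against day 0. Day 3 was 13.2-fold and 10.6-fold below day 0.

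Ppargc1b (PGC-1 beta), its constitutive relative, differed less. Its main probe gave 2.95, 1.31 and 1.17 on days 0, 1 and 3, or log2 ratios of -1.17 and -1.33 against day 0. A second probe, designed on a cDNA clone, gave 1.00, 0.404 and 0.327, and the remaining probe gave 0.839, 0.367 and 0.491. All 3 probes were highest in fresh cells and at least 2-fold lower on day 1. They parted afterwards, with log2 ratios of day 3 against day 1 of -0.15, -0.30 and 0.42. On day 3 against day 0 the last of them was at -0.77, short of 2-fold. The main probe's day 3 ratio was also short of 2-fold with spike-in scaling (-0.91), with normexp background correction (-0.90) and without the multiplicative spatial correction (-0.93). Its day 1 ratio was short of 2-fold with median centring (-0.96) and spike-in scaling (-0.95).

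Esrra, an estrogen-related receptor that is partnered by these coactivators on respiratory chain genes, was read at chr19:6985599-6985658 and chr19:6991170-6991229 (mm9, minus strand). The first probe gave 13.1, 4.48 and 3.83 on days 0, 1 and 3, and the other 0.468, 0.177 and 0.132. Fresh cells were highest on both. The log2 ratios were -1.55 and -1.40 on day 1 and -1.77 and -1.83 on day 3 against day 0. Between days 1 and 3 the ratio was -0.23 on the first probe, close to the error of 0.20, and -0.43 on the other.

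Esrrg, a receptor of the same class found in tissues with high oxidative demand, was the one gene of the 9 whose probes disagreed on a 2-fold difference by day 1. Its probes lie in one uninterrupted stretch of the same transcript, 3081 bases apart, on chromosome 1 (mm9, plus strand). The middle 30 bases of each are shown because the result depends on which is read. All bases are in lower case, as no motif is marked.
Esrrg probe at chr1:190035037-190035096: cgttgaaaagggaagataaacccaagaatg
Esrrg probe at chr1:190038118-190038177: gcagttttattttccttttaggtttgtcct
The downstream probe gave 2.55, 0.400 and 0.321 on days 0, 1 and 3. The upstream probe gave 0.562, 0.400 and 0.468. Fresh cells were highest on both, but the log2 ratios of day 3 against day 0 were -2.99 downstream and -0.26 upstream, or 7.93-fold and 1.20-fold lower. On day 1 they were -2.67 and -0.49. Over the 7576 genes with several probes, the day 3 ratios of the probes of a gene had a median SD of 0.47. The downstream probe stands for the gene in the counts because it was the brighter over the 3 arrays. With the mean of both probes Esrrg was at -1.58 on day 1 and -1.63 on day 3, still at least 2-fold lower.

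Nr1h4, which senses bile acids and is also expressed in renal tubules, was read at chr10:88917299-88917358 (mm9, minus strand). It gave 13.8, 2.48 and 0.921 on days 0, 1 and 3. Each day was lower than the one before it, at log2 ratios of -2.48 and then -1.43. Day 3 was 15.0-fold below day 0. Nr1h4 was the only one of the 9 genes at least 2-fold lower between days 1 and 3 on the main scale, and 63.5% of its log2 difference was present on day 1.

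Nr1h3, which senses oxysterols and drives cholesterol export, was read at chr2:91024435-91024494 (mm9, minus strand). It gave 3.27, 1.55 and 0.999 on days 0, 1 and 3. Fresh cells were highest and day 3 lowest, with log2 ratios of -1.08 on day 1 and -1.71 on day 3 against day 0. Like Nr1h4 it went on after the first day, with 63.1% of its log2 difference present on day 1 and a ratio of -0.63 from day 1 to day 3. On the main probes of Ppargc1b, Esrra and Esrrg, 88.4%, 87.3% and 89.3% was present on day 1. The other Esrra probe had 76.7% and the second Ppargc1b probe 81.1%. The remaining Ppargc1b probe and the upstream Esrrg probe were lowest on day 1. The day 1 ratio of Nr1h3 was short of 2-fold when arrays were centred on the median (-0.87) or scaled to spiked-in RNA (-0.85).

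**Figure D2:**
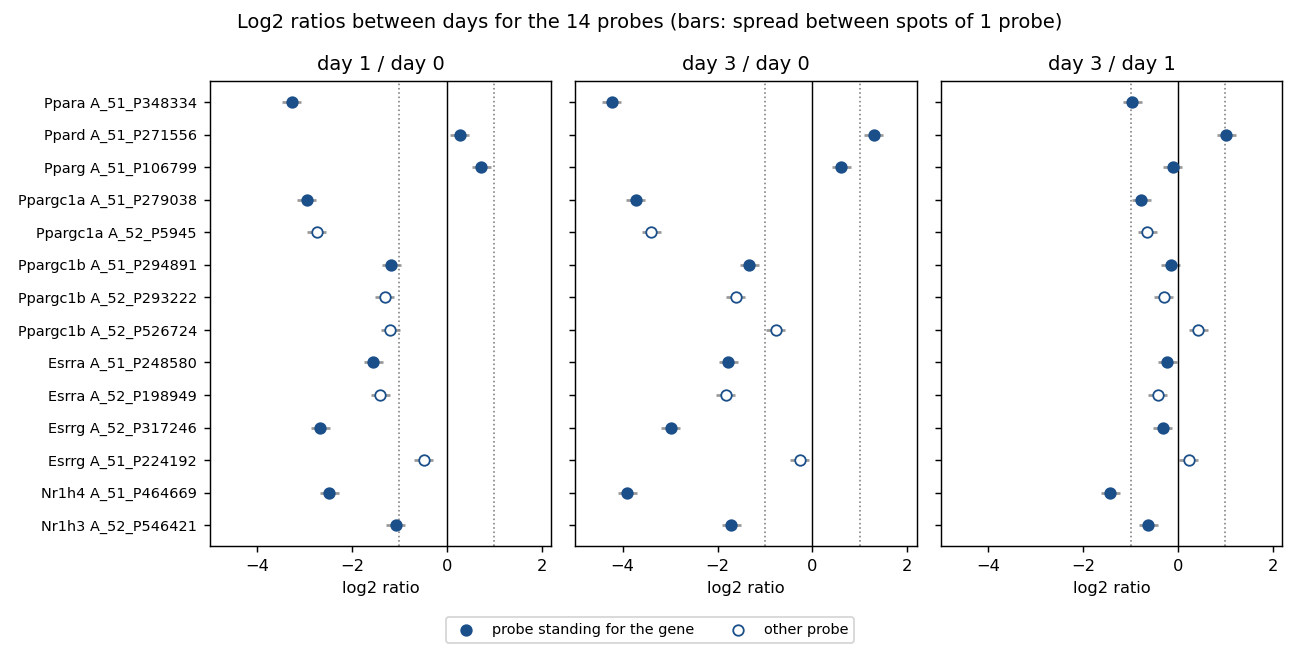
Log2 ratios between days for the 14 probes, in a panel for each pair of days. Filled points are the probes that stand for their genes, open points the other probes, bars the 0.20 error between spots of a probe, and dotted lines 2-fold. The Esrrg pair parts at -2.99 and -0.26 on day 3 against day 0, and in the day 3 against day 1 panel most points lie between the dotted lines.

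Counted over genes, 7 of the 9 were at least 2-fold lower on day 1 than on day 0, where 15.3% of the 18905 genes compared were that much lower. None was at least 2-fold higher, against 13.5% of genes. Ppara, Ppargc1a, Esrrg and Nr1h4 were at least 4-fold lower, against 5.15% of genes, and none was 4-fold higher, against 3.37%. The median log2 ratio of the 9 was -1.55, beside -0.11 over all genes. On day 3 against day 0, the same 7 were at least 2-fold lower, against 21.7% of 19102 genes, and 1, Ppard, was higher, against 16.5%. The same 4 genes were at least 4-fold lower, against 7.95%, and none 4-fold higher, against 5.32%. Esrrg is among these 4 on its downstream probe only and falls short of 4-fold on both days with its probes averaged. The median was -1.77 beside -0.10. Between days 1 and 3, Nr1h4 was at least 2-fold lower, against 8.21% of 19002 genes, and Ppard was higher, against 6.96%. None differed by 4-fold in that interval, against 1.31% lower and 1.62% higher over all genes, and the median was -0.32 beside -0.04. The 3 comparisons share arrays and are not independent of each other.

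Placed among all genes by the day 3 ratio, Ppara lay where 1.41% of genes were at least as low, Nr1h4 where 1.75% were, Ppargc1a where 1.94% were and Esrrg where 3.36% were. Esrra and Nr1h3 were less extreme, with 10.04% and 10.7% of genes at least as low, and Ppargc1b had 15.9%. At the other end, 11.8% of genes were at least as high as Ppard and 25.2% at least as high as Pparg.

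**Figure D3:**
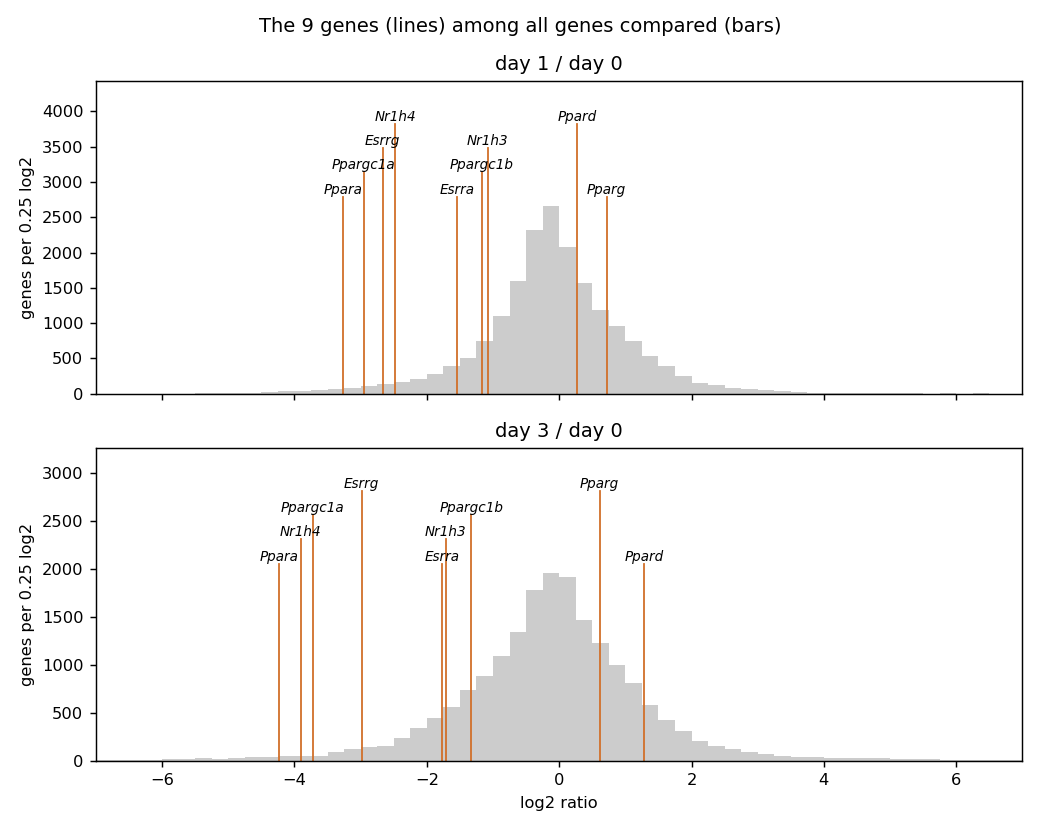
Histograms of the log2 ratio over all genes compared (grey bars, genes per bin) for day 1 and day 3 against day 0, with the 9 genes as vertical lines whose heights carry no value. Ppara, Nr1h4, Ppargc1a and Esrrg stand in the low tail on both days, and Ppard and Pparg lie to the right of 0.

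The genes with the nearest pattern to each of the 9 were found by the distance between their pairs of log2 ratios against day 0, over 3 arrays and 15427 genes. For Ppara these were Sfrp2, Slc22a5 and Iigp1, and 9 genes lay within the spot error of it. For Ppargc1a they were Pi16, Svopl and Fabp3, with 8 genes within the error. For Nr1h4 they were Mpv17l, Cndp1 and Nostrin, with 10 within it. For Esrrg, read on its downstream probe only, they were Lrrc4b, Tinag and Lpl, with 28. The milder patterns had many more neighbours within the error: 76 for Ppard, 102 for Esrra, 132 for Nr1h3, 167 for Ppargc1b and 414 for Pparg. With 3 arrays such likeness is a description only.

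The retinoid X receptors, with which PPAR, FXR and LXR pair on DNA, were not uniform. Rxra gave 14.6, 8.46 and 4.46 on days 0, 1 and 3, a log2 ratio of -1.71 on day 3, but its other probe was at -0.23. Rxrb gave 1.44, 1.72 and 1.79, a ratio of 0.31 that turned negative under reference gene scaling. Rxrg gave 0.381, 0.186 and 0.144, at -1.40. Nr1h2 (LXR beta), the close relative of Nr1h3, gave 2.12, 2.19 and 2.23, within the error between spots on this scale. Esrrb, the remaining estrogen-related receptor, gave 2.72, 0.508 and 0.329, at -3.05.

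In the wider receptor superfamily, 20 of 40 other nuclear receptors were at least 2-fold lower on day 3 than on day 0 and 2 were higher. Their median log2 ratio was -1.0001. Of 39 of them compared on day 1, 18 were lower and 2 higher. Over all genes, 21.7% were lower and 16.5% higher on day 3, and 15.3% and 13.5% on day 1. The vitamin D receptor Vdr gave 26.3, 2.05 and 1.44, and Hnf4a, a regulator of epithelial differentiation, gave 12.3, 1.39 and 1.17. Hnf4a's probes ranged from -3.91 to -0.87 on day 3. The glucocorticoid receptor Nr3c1, which binds the hydrocortisone in the medium, gave 4.10, 3.82 and 2.55. Its 4 probes disagreed, reaching 1.24 on day 1 and running from -1.12 to 0.14 on day 3, and reference gene scaling put the main probe at -1.46 on day 3. The receptors that were higher on both days were Rarg (0.272, 0.717 and 0.734) and Nr2c1 (0.235, 0.565 and 0.561), both short of 2-fold under reference gene scaling or with probes averaged.

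Of 21 other coactivators and corepressors, 4 were at least 2-fold lower and 5 higher on day 3, shares near the 21.7% and 16.5% of all genes. The median was 0.26. Under reference gene scaling 8 were lower and 2 higher, and the median was -0.51. Pprc1, the third member of the PGC-1 family, gave 1.28, 5.52 and 5.38, at log2 ratios of 2.11 and 2.07. Mybbp1a, which binds and represses PGC-1 alpha, gave 1.02, 6.81 and 6.51, at 2.73 and 2.67. Both were thus higher on each culture day, while Lpin1, a lipid phosphatase that also coactivates Ppara, gave 2.50, 0.576 and 0.896. Perm1, a muscle regulator induced by PGC-1 and ERR, gave 0.472, 0.0624 and 0.0529, though its other probe was at -0.35 on day 3. The steroid receptor coactivator Ncoa1 gave 6.52, 4.21 and 1.98, at -1.72.

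Of 8 transcription factors of mitochondrial biogenesis that act downstream of or beside PGC-1, none was at least 2-fold lower on day 1 or day 3. Of all genes, 15.3% and 21.7% were. Gabpb1, Gabpa and Yy1 were at least 2-fold higher on day 1, beside 13.5% of all genes, and Gabpb1 was on day 3, beside 16.5%. Other probes of Gabpa and Yy1 were at -0.47 and -0.70 on day 1. With probes averaged 1 gene was that much higher on day 1. Under reference gene scaling none was, and 1 was lower on day 1 and 2 on day 3. The median on day 3 was 0.60, 0.04 with probes averaged and -0.17 under reference gene scaling. Gabpb1, a subunit of the GA-binding protein, gave 0.143, 0.409 and 0.432. Tfam, which packages and transcribes mitochondrial DNA, gave 8.13, 9.80 and 10.5, a day 3 ratio of 0.37 that turned negative under reference gene scaling and with probes averaged.

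The known targets of the receptors were counted from lists. Of 25 targets of Ppara and Ppard, 21 were at least 2-fold lower and 2 higher on day 3 than on day 0, and the median log2 ratio was -2.44. Of the 21, 13 were at least 4-fold lower. On day 1, 19 were lower and 1 higher, with a median of -1.90. Over all genes, 21.7% were at least 2-fold lower and 16.5% higher on day 3, and 7.95% at least 4-fold lower. The 2-fold shares on day 1 were 15.3% and 13.5%. Fabp1, the liver fatty acid binding protein, gave 4.36 and 0.181 on days 0 and 1 and was not well above background on day 3, at least 651-fold lower than in fresh cells. The bound takes the dimmest probe still called present on the day 3 array as the upper limit for Fabp1. It holds on the main scale only: the log2 ratio ran from -10.12 with reference gene scaling to -6.13 with normexp background correction, beside -9.35 here. Cyp4a14, a fatty acid hydroxylase, gave 95.8, 9.71 and 0.486, at -7.62. Ehhadh, a peroxisomal beta-oxidation enzyme, gave 21.2, 1.49 and 0.361, at -5.88, and Cyp4a10 gave 48.7, 4.38 and 1.10, at -5.47, with probes from -7.19 to -4.02. Against the list's direction, the lipid droplet protein Plin2 gave 17.3, 65.4 and 63.5, at 1.87, and the hormone Fgf21 gave 0.0311, 0.0422 and 0.0867, at 1.48. Angptl4 gave no value, as its spot was marked non-uniform on day 1.

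Of 23 oxidative genes bound by estrogen-related receptors, 5 were at least 2-fold lower and none higher on day 3, with a median of -0.71. The lower share is near the 21.7% of all genes. However, 16.5% of all genes were higher, and their median was -0.10. Among those with the largest differences were Sdhb (41.0, 17.5 and 14.7) and Sdha (9.85, 4.75 and 4.21), subunits of succinate dehydrogenase, and the complex I subunit Ndufs1 (42.1, 19.4 and 15.4), at log2 ratios of -1.48, -1.22 and -1.45. The probes of Sdha ran from -2.63 to -1.22. No gene of this list was 4-fold lower, beside 7.95% of all genes. Ppargc1a and the main Esrrg probe were, but Esrra (-1.77), Ppargc1b (-1.33) and the upstream Esrrg probe (-0.26) were not.

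Of 10 fat storage targets of Pparg, 4 were at least 2-fold lower and 1 higher on day 3, with a median of -0.92. The shares of all genes were 21.7% lower and 16.5% higher. Lipoprotein lipase, Lpl, gave 16.9, 2.68 and 2.21. Fabp4 gave 8.36, 14.7 and 1.97, highest on day 1. Fabp4 is known in endothelium too, where the summed markers were 34.8, 21.7 and 8.04. On day 1 against day 0 the 8 endothelial markers were mixed, from -1.71 to 0.79 on the log2 scale, with a median of -0.55. Of them, 2 were at least 2-fold lower, and Cdh5 was highest at 0.79, beside 0.81 for Fabp4. On day 3 all 8 were at least 2-fold lower, and Fabp4 was at -2.09. The part of endothelial cells in the Fabp4 values was not tested. The fatty acid transporter Cd36 gave 0.443, 0.144 and 0.136, and Cidea gave 0.144, 0.119 and 0.0568. Agpat2, an enzyme of triglyceride synthesis, was higher, at 0.444, 0.909 and 1.05.

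Targets of LXR were divided. Of 14, 6 were at least 2-fold lower and 3 higher on day 3, and the median of -0.19 became 0.12 and 0.22 under median centring and spike-in scaling. Among all genes, 21.7% were that much lower and 16.5% higher. Smpdl3a, a phosphodiesterase, gave 59.7, 10.4 and 2.59. Apoe, the apolipoprotein of cholesterol transport, gave 63.6, 16.3 and 4.60, and Mylip, a ligase that degrades the LDL receptor, gave 8.46, 2.45 and 0.944. Fasn, fatty acid synthase, gave 6.02, 31.1 and 47.9, and the desaturase Scd2 gave 6.08, 7.93 and 45.1. Both lipid synthesis genes were highest on day 3. Abcg8 was at 1.12 on one probe and -2.02 on the other.

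Of 11 targets of FXR, 7 were at least 2-fold lower and 1 higher on day 3, with a median of -1.77. Between days 1 and 3, 5 were lower and 1 higher. The shares of all genes were 21.7% lower and 16.5% higher on day 3, and 8.21% and 6.96% between days 1 and 3. Other lists also had genes lower in that interval: 7 of 25 Ppara and Ppard targets, 4 of 14 LXR targets and 2 of 10 Pparg targets. Of the 12 proximal tubule markers 7 were lower then, and of the 23 targets of estrogen-related receptors 0. Baat, which conjugates bile acids, gave 1.07, 0.0856 and 0.0231, at -5.54. Slc51a, a subunit of the basolateral bile acid exporter, gave 11.1, 4.59 and 2.08, and the repressor Nr0b2 (SHP) gave 0.199, 0.0592 and 0.0584. Kng1 was at -2.77 on its main probe and 0.83 on the other. Sdc1, a heparan sulphate proteoglycan, was higher, at 0.452, 1.01 and 2.36. Many of the targets in these lists are also expressed in the proximal tubule, whose 12 markers had a median of -5.49 on day 3. The part of that in these values was not tested.

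**Figure D4:**
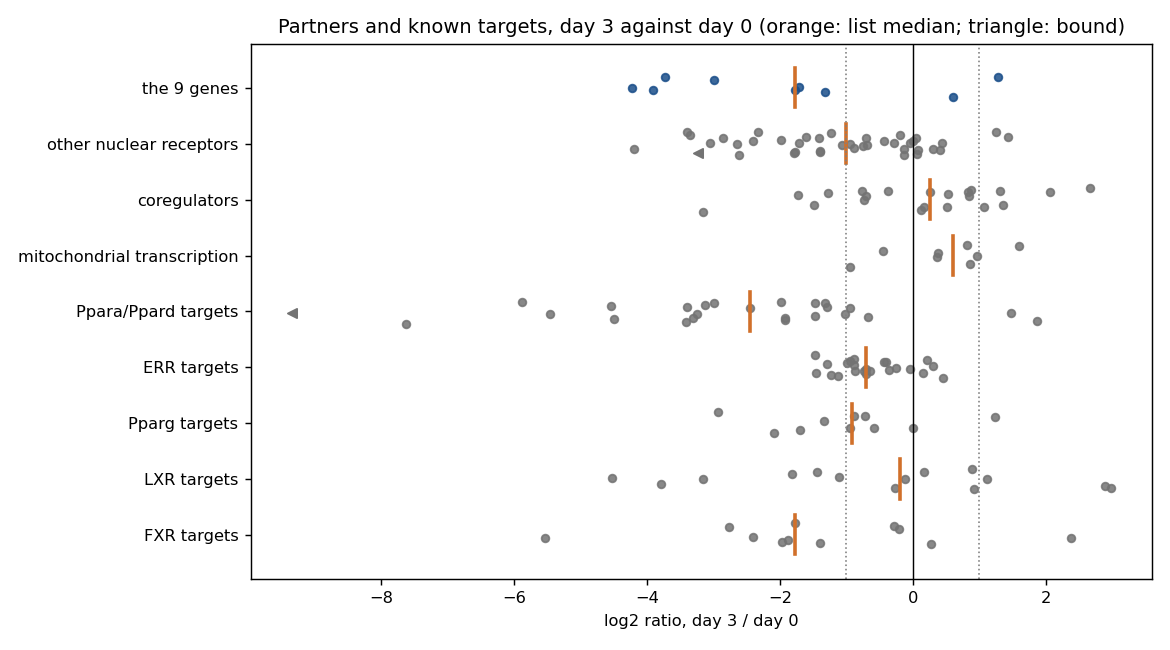
Log2 ratio of day 3 against day 0 for each gene of the 9, of their partners and of their known targets (1 point per gene, vertical jitter only), with the list median as an orange bar, dotted lines at 2-fold and triangles for bounds. The Ppara and Ppard targets have a median of -2.44 and the ERR targets of -0.71, and the coregulators spread on both sides of 0.

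Promoters were searched for AGGTCA, the core hexamer bound by these receptors, and for TCAAGGTCA, the extended site of estrogen-related receptors, on both strands; the longer motif contains the shorter. RefSeq sequence (GRCm38.p6) was used for 8 of the 9 genes, with 14 start sites and 250 bases upstream of each. AGGTCA occurred in 3 of the 14, at 2 start sites of Pparg and at that of Nr1h4, and TCAAGGTCA in none. Over all 32851 promoters of that length, 14.02% held AGGTCA and 0.387% held TCAAGGTCA. The 3 sequences are shown on the gene strand, with the motif in capitals, because they are the ones with a match among the 9 genes.
Pparg, chr6:115360894-115361143 (plus strand): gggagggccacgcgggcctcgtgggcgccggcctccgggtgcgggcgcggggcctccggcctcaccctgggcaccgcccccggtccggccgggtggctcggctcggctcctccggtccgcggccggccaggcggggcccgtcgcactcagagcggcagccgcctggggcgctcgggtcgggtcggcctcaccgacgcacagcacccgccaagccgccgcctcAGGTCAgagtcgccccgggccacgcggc
Pparg, chr6:115362099-115362348 (plus strand): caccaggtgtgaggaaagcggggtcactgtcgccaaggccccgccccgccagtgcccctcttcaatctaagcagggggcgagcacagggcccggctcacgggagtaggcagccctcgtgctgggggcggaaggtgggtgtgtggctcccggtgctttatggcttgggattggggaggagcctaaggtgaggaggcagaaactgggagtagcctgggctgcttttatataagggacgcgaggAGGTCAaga
Nr1h4, chr10:89506659-89506908 (minus strand): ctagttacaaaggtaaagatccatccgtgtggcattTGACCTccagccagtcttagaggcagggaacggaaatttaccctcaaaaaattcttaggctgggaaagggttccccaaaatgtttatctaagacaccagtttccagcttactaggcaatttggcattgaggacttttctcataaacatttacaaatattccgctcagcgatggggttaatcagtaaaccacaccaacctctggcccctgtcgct
In Pparg the hexamer begins 28 bases and 9 bases before the start site. In Nr1h4 it lies 214 bases before, on the other strand (TGACCT). A match describes the letters only and is not evidence of binding.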

How the data were processed

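The members and gene lists were chosen with earlier results of these data known. Cy3-labelled total RNA was hybridised to 3 Agilent arrays of 45018 spots. The deposited scanner files hold intensity per spot, background-subtracted by Feature Extraction (10.5.1.1 per the file headers, 9.1 per the submitters' processing notes). A multiplicative spatial correction was applied on days 0 and 1 and not on day 3. This was inferred from whether processed and background-subtracted spot signals differed, not read from the headers. The deposited value table held each intensity as a ratio to the array's 75th percentile, rounded, and matched the ratio computed here within 0.0005. Flags other than intensity were used as deposited by the authors.

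Here intensity was divided by the array's 75th percentile over non-control spots. Outlier spots (85 to 102 per array) were left out and no spot was saturated. Spots of a probe were averaged, and the brightest probe over the 3 arrays stood for its gene. Probes were named through RefSeq: 26888 by accession, 5025 by symbol and 832 by synonym, with 8429 unnamed. Genes well above background numbered 18612 to 18871 per array. A gene below background on both arrays was not compared. With 1 array per day, no p-value was computed; the number of arrays limits the precision. Genes named were the 9 members, any partner gene, the 4 targets of each list with the largest day 3 ratio, targets at least 2-fold against their list, defining markers and the 3 nearest patterns. One gene that this rule names is not reported here. Probe coordinates are mm9 per the file headers, and promoters are RefSeq GRCm38.p6, on which the promoter of Ppargc1b was not used here. Alternatives were median centring, quantile normalization, scaling to 12 reference genes or 288 spike-in spots, normexp background correction (offset 50, limma 3.58.1 in R 4.3.3), the mean of probes, both arrays above background, outlier spots kept, the value table, 4-fold in place of 2-fold and, chosen after seeing the data, no multiplicative correction. Python 3.11.15 with pandas 2.3.3 and numpy 2.4.6 was used, and the counting was tested on simulated data.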

Additional observations from a re-analysis of the deposited data

How the results depend on the processing

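No paired analysis was possible because each day has 1 array, so replicate number 1 gives no residual spread. Some alternatives could not move a member ratio, or hardly so. All member spots were well above background, and the value table differed by rounding only. Averaging probes leaves genes with 1 probe as they were. Such ratios are included in the counts that follow. Of 270 member ratios under 10 alternatives, 263 kept their sign and 258 their side of 2-fold. The exceptions were ratios of Ppard, Pparg, Ppargc1b, Nr1h3 and, between days 1 and 3 under reference gene scaling, Ppara (-1.16); those not given above were Ppard at 0.82 (reference genes) and, also between days 1 and 3, Pparg at 0.08 (spike-ins) and Ppargc1b at 0.03 (spike-ins), 0.24 (normexp) and 0.25 (no multiplicative correction, chosen after seeing the data). Scaling moved the all-gene median from -0.11 and -0.10 on days 1 and 3 to -0.69 and -0.88 (reference genes), 0.12 and 0.30 (spike-ins) and 0.10 and 0.20 (median centring). With it, the share of higher among all genes at least 2-fold apart moved from 47.0% on day 1 to 15.3%, 60.9% and 59.96%, from 43.2% on day 3 to 13.1%, 64.0% and 58.9%, and from 45.9% between days 1 and 3 to 31.0% and 61.4% for the first 2.

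Members counted higher on day 3 numbered 0 under reference genes, 0 under normexp and 2 under spike-ins. Between days 1 and 3, reference genes gave 2 lower and 0 higher. From 4-fold, 4 members were lower on each day against day 0 (with probes averaged Esrrg, at -1.58 and -1.63, is not among them), 0 were higher on day 3, and 0 were lower and 0 higher between days 1 and 3. The partner and target lists together gave, under reference genes, 86 lower and 4 higher on day 1 and 100 lower and 6 higher on day 3; 23 higher on day 3 under median centring and 23 under spike-ins; and 12 lower between days 1 and 3 under spike-ins. From 4-fold they gave 27 lower and 3 higher on day 1, 32 and 5 on day 3, and 5 and 1 between days 1 and 3. All genes gave, under reference genes, 6223 lower and 1122 higher on day 1 and 8571 and 1294 on day 3; 4935 higher on day 3 under spike-ins; and 838 lower between days 1 and 3 under normexp. From 4-fold they gave 973 and 638, 1519 and 1017, and 249 and 307. The 4-fold counts are smaller by construction; the cause of the other changes was not tested. Levels under 1.14%, 1.06% and 0.669% of the 75th percentile on days 0, 1 and 3 were below the lowest signal well above background, and no member came near them.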

Other observations

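Some receptors reached their highest or lowest level on day 1. Rarb, a retinoic acid receptor, gave 0.807, 0.165 and 0.438 on days 0, 1 and 3, and was 1.41 higher on the log2 scale on day 3 than on day 1, but its other probe was 0.25 higher, close to the 0.20 error between spots. The orphan receptor Nr4a1, an early response gene, gave 60.9, 3.46 and 5.94. Nr2c2 gave 0.522, 0.854 and 0.429, at 0.71 on day 1 against day 0 and 0.17 on its other probe. Nr4a3 gave 0.0219, 0.00685 and 0.0291, lowest on day 1, where it was not well above background. Each value is from 1 array per day.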
